A study of Mus musculus with 8 samples.

Results

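Cd80, Cd86, Cd274 and Pdcd1lg2 encode the 4 B7 family ligands described here, and they were chosen by name with their levels in all 8 libraries already in view. They are 4 of the 24976 gene symbols in the count table. Their levels and fold changes are therefore given as a description without p-values, how many of them were called is stated once with nothing read from it, and p-values are given only for other genes. The libraries were made from naive mouse CD8+ T cells activated in culture. Of the 4 groups, each of 2 libraries, dKO at 48 h and dKO at 24 h came from mice with floxed Nr4a1 and Nr4a2 and a Cre named Cd8Cre, and WT at 48 h and WT at 24 h came from wild-type littermates. All groups received 2 µg/ml of anti-CD3, 1 µg/ml of anti-CD28 and 10 ng/ml of IL2, so CD28 was engaged by antibody in every culture. The sources used here give neither the ages of the mice, nor the exons removed, nor the promoter fragment driving Cre. Nothing says that the 2 libraries of a group came from separate animals or cultures, so a p-value below reflects only how far these libraries spread.

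B7 ligands are membrane proteins that tune T cell activation. CD80 and CD86 bind CD28, which costimulates, and CTLA-4, which inhibits, while PD-L1 (encoded by Cd274) and PD-L2 (encoded by Pdcd1lg2) bind the inhibitory receptor PD-1. CD80 also binds PD-L1 on the same membrane. These ligands are best known from dendritic cells, B cells and macrophages, but activated T cells also make some of them. Interferon gamma, acting through JAK kinases and IRF1, is a known inducer of PD-L1.

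The genes form a pair of close neighbours and a looser pair (GENCODE M21 on GRCm38). Cd274 lies at chr19:29367455-29388095 on the plus strand, and Pdcd1lg2 follows it at chr19:29410919-29471161 on the same strand, with 22823 bases between them. Cd80 lies at chr16:38455561-38496335 on the plus strand and Cd86 at chr16:36603869-36666081 on the minus strand, with 1789479 bases between them. The 250 bases before the RefSeq start (GRCm38.p6) are shown for the members found in the promoter table (3 of 4, without Cd86), because the values below show Cd274 and Pdcd1lg2 lower at 48 h and Cd80 higher. They were read from chr16:38458683-38458932 for Cd80, chr19:29367188-29367437 for Cd274 and chr19:29410669-29410918 for Pdcd1lg2, all on the plus strand, 5′ to 3′. The RefSeq start of Cd80 lies inside the longer GENCODE gene, and the Cd274 window overlaps the annotated Plgrkt gene. Capitals mark a match to an AP-1 motif in Cd80, to an IRF motif in Cd274 and to an NF-kB motif in Pdcd1lg2.
Cd80: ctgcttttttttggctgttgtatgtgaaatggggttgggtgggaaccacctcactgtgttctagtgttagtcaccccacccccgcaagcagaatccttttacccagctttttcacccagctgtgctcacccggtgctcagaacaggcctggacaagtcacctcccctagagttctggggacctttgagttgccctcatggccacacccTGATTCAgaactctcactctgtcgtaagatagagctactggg
Cd274: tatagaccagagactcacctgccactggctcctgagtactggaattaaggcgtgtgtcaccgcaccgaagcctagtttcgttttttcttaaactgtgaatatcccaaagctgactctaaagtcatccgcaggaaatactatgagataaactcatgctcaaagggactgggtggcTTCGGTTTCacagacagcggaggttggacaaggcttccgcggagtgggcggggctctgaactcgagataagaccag
Pdcd1lg2: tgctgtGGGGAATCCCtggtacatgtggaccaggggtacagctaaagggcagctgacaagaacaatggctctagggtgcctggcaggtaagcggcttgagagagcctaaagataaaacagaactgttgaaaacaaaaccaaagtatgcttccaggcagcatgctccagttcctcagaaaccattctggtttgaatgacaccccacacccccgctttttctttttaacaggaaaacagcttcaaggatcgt

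Matches were searched on both strands. The AP-1 motif TGANTCA matched Cd80 at position -42 from the start and is found in 6.75% of the 32851 promoter windows of the same length. The IRF motif GAAANNGAA matched the reverse strand of Cd274 at -76 (7.13% of windows), and an NF-kB motif matched Pdcd1lg2 on both strands at -244 (7.25% of windows). The short NFAT core GGAAA, which 55.6% of windows hold, was found at -120 in Cd274 and at -22 in Pdcd1lg2 and is not in capitals. The NR4A element AAAGGTCA (1.34% of windows) had no match in these 3 windows. A match of letters describes the sequence and is not a binding site.

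The libraries held 5000952 to 21686236 counts, the highest being WT 48 h replicate 2. CD8 T cell markers (Cd8a, Cd8b1, the Cd3 genes, Cd2 and Lck, 7 of 7 tested) summed to 1480 to 2224 counts per 1000000 counts (CPM). Of the 4 CD4 or regulatory T markers, Cd4 had 0 to 2 counts in a library and Foxp3 9 to 55, and Ikzf2 made up most of the sum, which was 23.0 and 22.7 CPM in dKO and 36.5 and 42.7 CPM in WT at 48 h, and 24.9 and 30.2 CPM in dKO and 25.8 and 20.9 CPM in WT at 24 h. Ikzf2 was lower in dKO at 48 h (log2 fold change -0.84, adjusted p 0.0222 in edgeR, lost without any 1 of the 4 dKO libraries) and higher at 48 h in WT (0.88, adjusted p 0.0137, lost without WT 24 h replicate 2). Replicates differed most in WT at 48 h, where the median absolute log2 difference between replicates was 0.36, against 0.15 to 0.19 in the other groups. The share of ribosomal protein genes was 6.36% in WT 48 h replicate 2, against 10.0% to 12.1% in the other libraries. The targeted genes did not mark the libraries labelled dKO by low levels at both times: Nr4a2 had 75.3 and 77.2 CPM in dKO and 24.6 and 33.1 CPM in WT at 48 h, and Nr4a1 had 633 and 668 CPM in dKO and 879 and 777 CPM in WT. At 24 h Nr4a2 had 142 and 136 CPM in dKO and 59.7 and 49.1 CPM in WT, and Nr4a1 had 532 and 505 CPM in dKO and 525 and 275 CPM in WT. In edgeR's quasi-likelihood test Nr4a2 was higher in dKO at 48 h (adjusted p 0.00982) and at 24 h (adjusted p 0.00836). Nr4a1 was below WT in both dKO libraries at 48 h (log2 fold change -0.35, adjusted p 0.380) and overlapped with WT at 24 h (0.37, adjusted p 0.881), and passed at neither time. Whether the counted reads reach the deleted parts is not given, so dKO is used below only as the label of the libraries. Xist lay between 0.719 and 1.80 CPM in dKO and between 323 and 805 CPM in WT, and Y-linked genes summed to 131 to 175 CPM in dKO and to 1.28 to 1.75 CPM in WT. Genotype label and sex-type transcripts thus cannot be told apart in any value that follows. In bulk samples fewer cells making a gene and less RNA per cell cannot be told apart either.

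Cd80, the ligand that binds CD28 and CTLA-4, was almost absent at 24 h and clearly detected at 48 h. It had 113 and 123 counts in dKO and 64 and 220 in WT at 48 h, and 18 and 14 counts in dKO and 6 and 4 in WT at 24 h. Scaled by the trimmed mean of M values (TMM), this was 16.8 and 16.0 CPM in dKO and 10.9 and 11.6 CPM in WT at 48 h. At 24 h it was 1.96 and 2.60 CPM in dKO and 0.841 and 0.586 CPM in WT. All 4 groups were separate, in the order dKO 48 h, WT 48 h, dKO 24 h and WT 24 h from high to low. The lowest count, 4 in WT 24 h replicate 2, has an exact Poisson interval of 0.160 to 1.50 CPM, which reaches above the 1.42 CPM lower bound of dKO 24 h replicate 2, so single libraries at 24 h are poorly resolved. Between 48 h and 24 h the fitted log2 fold change of Cd80 was 2.87 (standard error, SE, 0.24) in dKO and 3.95 (SE 0.29) in WT, that is 7.32-fold and 15.5-fold. The dKO over WT log2 fold change was 0.54 (SE 0.19) at 48 h, or 1.45-fold, and 1.61 (SE 0.37) at 24 h, or 3.06-fold.

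Cd86, the other ligand of CD28 and CTLA-4, stayed near the detection limit throughout. It had 7 and 9 counts in dKO and 15 and 33 in WT at 48 h, and 13 and 6 counts in dKO and 12 and 7 in WT at 24 h. These counts correspond to 1.04 and 1.17 CPM in dKO and 2.56 and 1.73 CPM in WT at 48 h, and to 1.42 and 1.11 CPM in dKO and 1.68 and 1.03 CPM in WT at 24 h. Both WT 48 h libraries were the highest, while the other 3 groups overlapped each other. The log2 fold change of dKO over WT was -0.86 (SE 0.43) at 48 h and -0.07 (SE 0.47) at 24 h, and that of 48 h over 24 h was -0.22 (SE 0.48) in dKO and 0.57 (SE 0.41) in WT. The summed myeloid and dendritic markers showed the same order of groups at 48 h, at 6.39 and 7.13 CPM in dKO and 16.0 and 14.4 CPM in WT, against 7.75 and 7.60 CPM in dKO and 5.61 and 6.01 CPM in WT at 24 h. Of the 12 markers on that list 11 were in the table and 3 were tested, and Cd14 contributed the most counts over the 8 libraries. Of the 3, Cd14 (log2 fold change -1.22, adjusted p 0.0162) and Xcr1 (-1.87, adjusted p 0.0426) were lower in dKO at 48 h in edgeR's test, and Cd14 was higher at 48 h in WT (1.56, adjusted p 0.00287). These calls held in 6, 1 and 7 of 8 leave-outs, and both calls of Cd14 were lost with only the 4 libraries compared (adjusted p 0.0553 and 0.0657). The third tested marker, Zbtb46, with 0 to 14 counts in a library, went the other way and was not called. Its log2 fold change of dKO over WT was 0.90 (SE 0.82) at 48 h and 2.03 (SE 0.83) at 24 h. Lyz2, Fcgr1 and Clec9a were at 0 counts in all libraries and Itgax at 0 to 1. The part of these markers in the Cd86 counts was not tested.

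Cd274, encoding PD-L1, was higher at 24 h than at 48 h and overlapped between the genotype labels. Its counts were 109 and 114 in dKO and 81 and 360 in WT at 48 h, and 324 and 224 counts in dKO and 302 and 259 in WT at 24 h. In CPM these were 16.2 and 14.8 in dKO and 13.8 and 18.9 in WT at 48 h. The 24 h libraries had 35.4 and 41.5 CPM in dKO and 42.3 and 37.9 CPM in WT. At each time the values in dKO and WT overlapped, and every 48 h library lay below every 24 h library. The log2 fold change of 48 h over 24 h was -1.31 (SE 0.19) in dKO and -1.27 (SE 0.19) in WT. The dKO over WT value was -0.11 (SE 0.20) at 48 h and -0.07 (SE 0.18) at 24 h. The sign at 48 h depended on the library left out and on the scaling: it was 0.17 without WT 48 h replicate 2, -0.31 without WT 48 h replicate 1, and 0.07 when scaled by library size alone. The 24 h value was 0.02 without WT 24 h replicate 1 and 0.04 without dKO 24 h replicate 1.

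Pdcd1lg2, encoding PD-L2, had the highest count of the 4 genes in every library. It had 212 and 239 counts in dKO and 145 and 399 in WT at 48 h, and 650 and 395 counts in dKO and 322 and 285 in WT at 24 h. The levels were 31.5 and 31.0 CPM in dKO and 24.7 and 21.0 CPM in WT at 48 h. At 24 h they were 70.9 and 73.3 CPM in dKO and 45.1 and 41.8 CPM in WT. The 4 groups were separate, in the order dKO 24 h, WT 24 h, dKO 48 h and WT 48 h from high to low. The log2 fold change of dKO over WT was 0.46 (SE 0.15) at 48 h, or 1.38-fold, and 0.73 (SE 0.14) at 24 h, or 1.66-fold. That of 48 h over 24 h was -1.21 (SE 0.15) in dKO and -0.94 (SE 0.15) in WT. An annotated antisense gene, A930007I19Rik, overlaps the 3′ end of Pdcd1lg2 and had 0 to 9 counts in a library, and another, AC119228.1, overlaps Cd274 and was not analysed here. Whether counting used strand is not given, so reads of these genes and their antisense partners cannot be told apart.

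**Figure D1:**
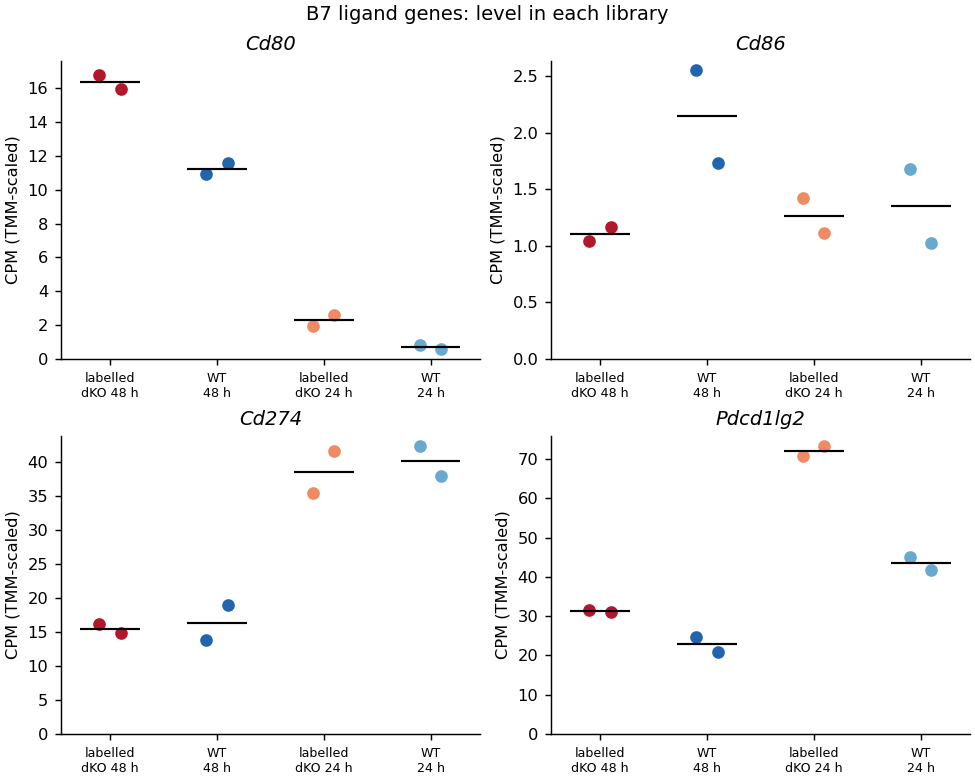
Level of each B7 ligand gene in CPM (TMM-scaled, axis from 0 and different in each panel) in the 8 libraries; points are libraries and the bar is the mean of the 2 in a group. Cd80 is high at 48 h, Cd274 and Pdcd1lg2 at 24 h, and Pdcd1lg2 lies between 70.9 and 73.3 CPM in dKO at 24 h against 41.8 to 45.1 CPM in WT.

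By the rule applied to all genes, an adjusted p below 0.05 (Benjamini-Hochberg over 12742 genes), no count of members can be read as evidence, since the members were chosen with these contrasts known. All 4 members passed the filter on low counts. In dKO over WT, 0 of 4 were called at 48 h, where 3.19% of all genes were called higher and 8.04% lower, and 0 of 4 at 24 h, where 0.361% were called higher and 0.0706% lower. In 48 h over 24 h, 3 of 4 were called in dKO (background 1.76% higher and 1.88% lower) and 3 of 4 in WT (7.87% higher and 3.5% lower), with Cd80 higher and Cd274 and Pdcd1lg2 lower in both.

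**Figure D2:**
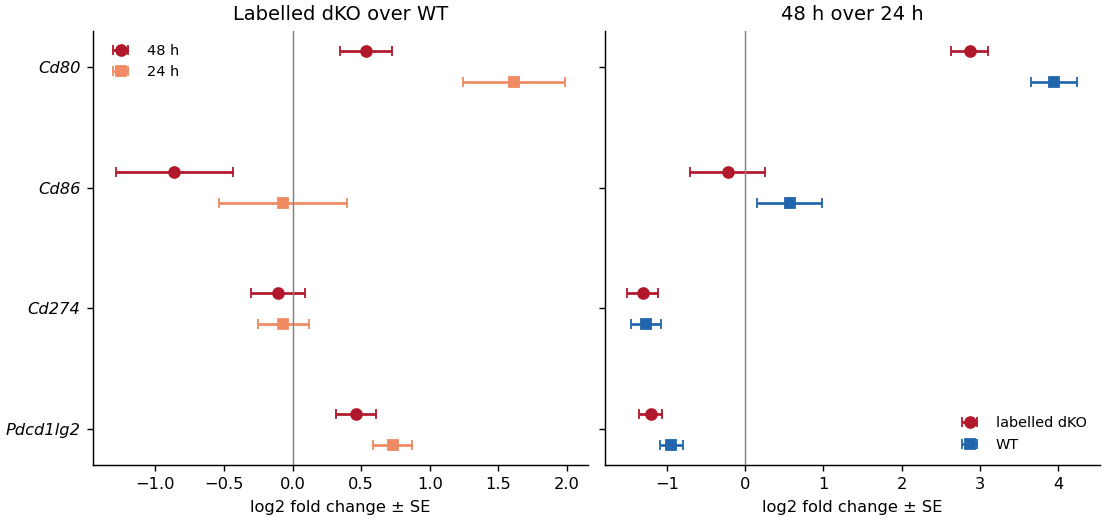
Fitted log2 fold change of the 4 genes with SE, for dKO over WT (left, at 48 h and 24 h) and 48 h over 24 h (right, in dKO and WT); the vertical line is no change. The time changes of Cd80 (2.87 and 3.95) and those of Cd274 (-1.31 and -1.27) run in opposite directions, and the genotype values of Cd274 lie at 0 within their SE.

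The time change of each gene was also set against the genotype label. The interaction, the log2 fold change of 48 h over 24 h in dKO minus that in WT, was -1.08 (SE 0.42) for Cd80, -0.79 (SE 0.63) for Cd86, -0.04 (SE 0.27) for Cd274 and -0.27 (SE 0.21) for Pdcd1lg2. Without WT 24 h replicate 1 or 2, each with under 10 Cd80 counts, the value for Cd80 was -1.36 and -0.83. No gene in the table was called for this interaction (0% higher and 0% lower). At an unadjusted p below 0.05 there were 1575 genes, and DESeq2 called 0. The count was 3459 without WT 48 h replicate 1, 141 without WT 24 h replicate 1 and 21 without WT 48 h replicate 2.

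The make-up of the 4 genes' counts does not depend on the scaling between libraries. Cd80 made up 25.6% and 25.4% of them in dKO and 21.0% and 21.7% in WT at 48 h, against 1.79% and 2.19% in dKO and 0.935% and 0.721% in WT at 24 h. The exact (Clopper-Pearson) 95% intervals of the 48 h libraries together span 16.6% to 30.0% and do not meet those of the 24 h libraries, of which the highest bound is 3.65%. The ratio of Pdcd1lg2 to Cd274 counts was 1.94 and 2.10 in dKO and 1.79 and 1.11 in WT at 48 h. At 24 h it was 2.01 and 1.76 in dKO and 1.07 and 1.10 in WT. The groups were separate at 24 h, whereas at 48 h WT replicate 1 lay near the dKO libraries and WT replicate 2 did not.

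**Figure D3:**
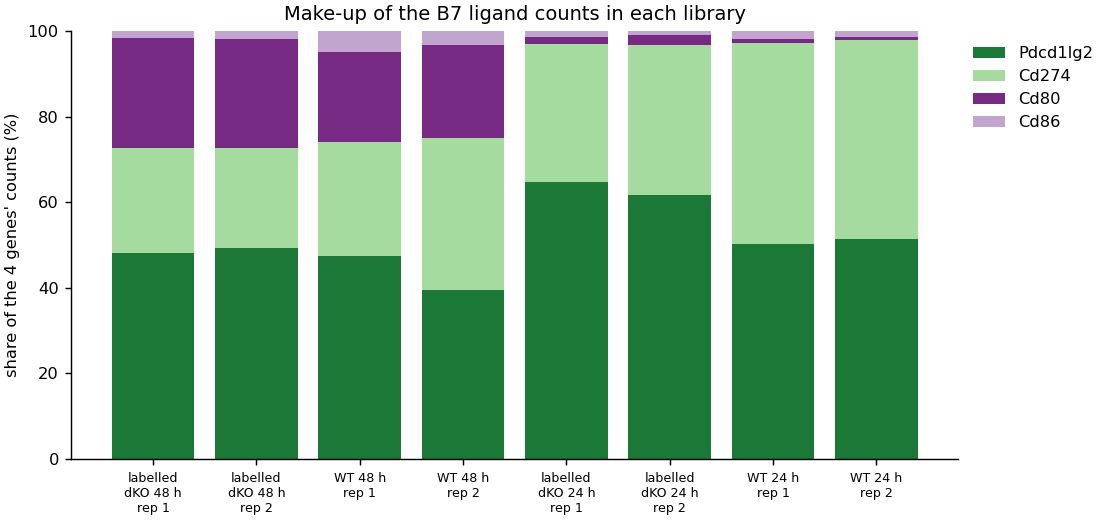
Share of each gene in the summed counts of the 4 B7 ligand genes in each library (%, stacked from 0, 305 to 1012 counts per library). Cd80 takes 21.0% to 25.6% at 48 h and 0.721% to 2.19% at 24 h, and the Pdcd1lg2 share at 24 h is 64.7% and 61.8% in dKO against 50.2% and 51.4% in WT.

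Levels of different genes were compared per kb of exon, over 11842 tested genes with a length. How reads are spread along a gene is not given, so this scale assumes even coverage. In dKO at 24 h Pdcd1lg2 was at 36.8 CPM per kb, above 89.1% of genes, and Cd274 at 10.6 CPM per kb, above 71.8%. Cd80 was at 4.42 CPM per kb in dKO and 3.03 in WT at 48 h, above 53.2% and 43.2% of genes, and at 0.616 in dKO and 0.193 in WT at 24 h, above 12.9% and 2.34%. At 48 h in dKO the per-length level of Cd80 was close to that of Cd274, which was 4.28 CPM per kb. Cd86 was between 0.301 and 0.586 CPM per kb in the group means, above at most 10.9% of genes.

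Other members of the B7 family were scarce, apart from Vsir, whose CPM lay above that of Cd274 in every library. Of 7 listed genes 5 were in the table, and only Vsir, encoding the inhibitory B7-like protein VISTA, was tested. Icosl had 0 to 2 counts in a library, Cd276 and Btn1a1 0 to 1, and Btnl2 0, while Vtcn1 and Btn2a2 were not analysed here. Vsir had 21.8 and 21.0 CPM in dKO and 22.7 and 26.8 CPM in WT at 48 h, and 43.0 and 52.7 CPM in dKO and 51.2 and 52.9 CPM in WT at 24 h. Every 48 h library lay below every 24 h library. Vsir fell between 24 h and 48 h by 1.15 on the log2 scale in dKO (adjusted p 0.00633) and by 1.06 in WT (adjusted p 0.00264), in edgeR's quasi-likelihood test. The call in WT held with each of the 8 libraries left out in turn, and that in dKO was lost without any 1 of the 4 dKO libraries (adjusted p up to 0.132).

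The receptors of these ligands were abundant, apart from Rgmb, which binds PD-L2, and Ctla4 at 24 h, where its CPM lay below that of Cd274. Ctla4, the inhibitory receptor for CD80 and CD86, had 86.2 and 87.8 CPM in dKO and 91.6 and 58.1 CPM in WT at 48 h, and 15.6 and 15.6 CPM in dKO and 17.7 and 21.7 CPM in WT at 24 h. Ctla4 rose by 2.48 on the log2 scale from the earlier time in dKO (adjusted p 0.00106) and by 1.92 in WT (adjusted p 0.00221). Icos, a costimulatory receptor of the CD28 family whose ligand Icosl was near 0 here, rose by 1.01 in dKO (adjusted p 0.00418) and by 1.13 in WT (adjusted p 0.00221). The Ctla4 calls and the Icos call in WT held with each library left out, and the Icos call in dKO in 4 of 8 leave-outs. Cd28 had 129 and 123 CPM in dKO and 168 and 187 CPM in WT at 48 h, and 152 and 160 CPM in dKO and 193 and 221 CPM in WT at 24 h. The dKO values of Cd28 lay below the WT values at both times, with log2 fold changes of -0.49 (adjusted p 0.0599) and -0.41 (adjusted p 0.513) that did not pass the test.

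Pdcd1, encoding PD-1, the receptor for PD-L1 and PD-L2, had 75.6 and 67.8 CPM in dKO and 105 and 119 CPM in WT at 48 h. At 24 h it had 115 and 107 CPM in dKO and 84.1 and 90.7 CPM in WT, so the order of the groups differed between times. Pdcd1 was lower in dKO at 48 h, with a log2 fold change of -0.64 (SE 0.14, adjusted p 0.0231), and at 24 h the value was 0.34 (adjusted p 0.676). The 48 h call was lost without any 1 of the 4 dKO libraries (adjusted p up to 0.239) and when scaled by library size alone (adjusted p 0.0824). In dKO Pdcd1 was also lower at 48 h than at 24 h (log2 fold change -0.63, adjusted p 0.0482), a call that held in only 2 of 8 leave-outs. Rgmb, with 5 and 6 counts in dKO and 13 and 40 in WT at 48 h, had a log2 fold change of -1.47 in dKO (SE 0.38, adjusted p 0.0360), which held in only 1 of 8 leave-outs and had an adjusted p of 0.146 in DESeq2.

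**Figure D4:**
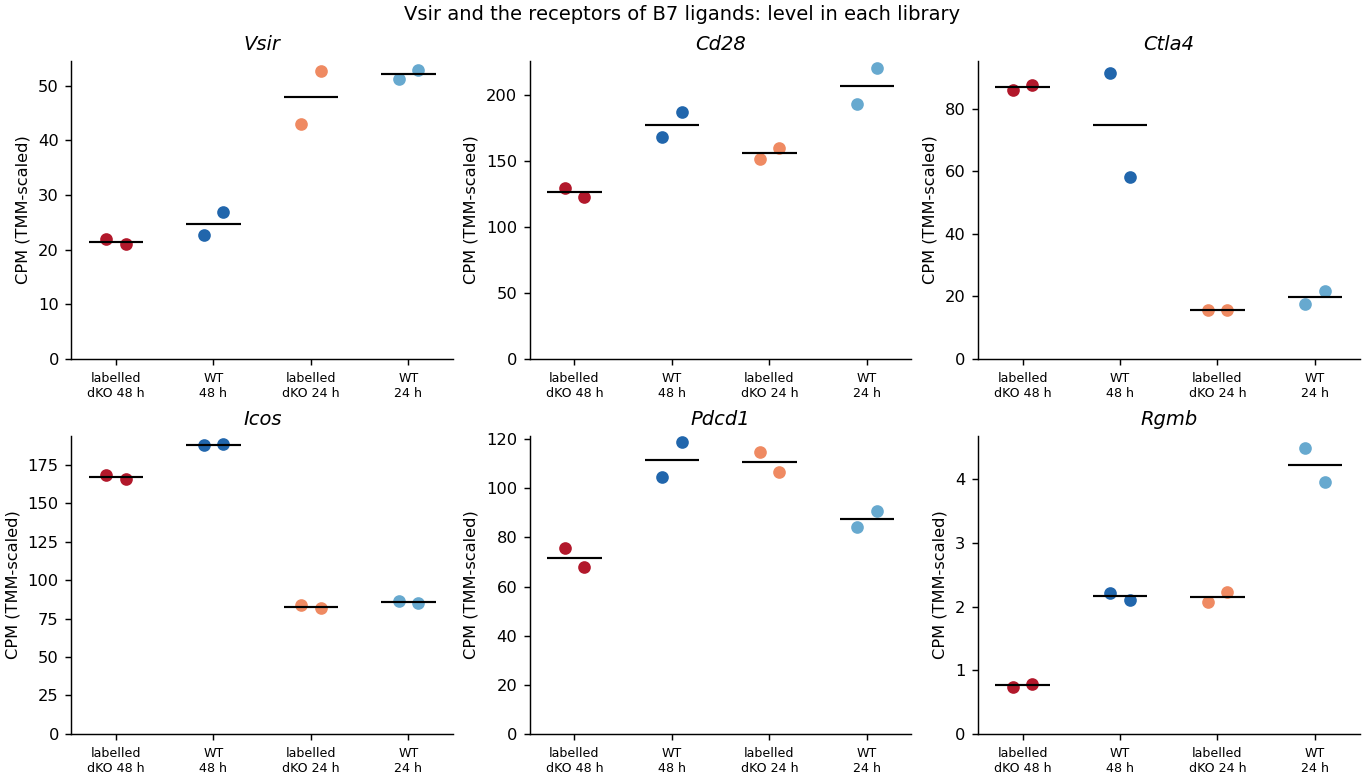
Level in CPM (TMM-scaled, axes from 0) of Vsir and of 5 receptors of B7 ligands in the 8 libraries; points are libraries and bars are group means. Ctla4 and Icos are high in all 48 h libraries, Vsir in all 24 h libraries, and Pdcd1 in dKO lies below WT at 48 h (67.8 and 75.6 against 105 and 119 CPM) and above it at 24 h.

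The pathway lists, chosen with earlier results of these data known, held 39 tested genes, and the share of all genes called is given in brackets. Of the 39, 6 were called higher (3.19%) and 3 lower (8.04%) in dKO at 48 h, and 1 higher (0.361%) and 0 lower (0.0706%) at 24 h. Between 48 h and 24 h, 4 were called higher (1.76%) and 5 lower (1.88%) in dKO, and 4 higher (7.87%) and 9 lower (3.5%) in WT. Their median log2 fold change was -0.07 and -0.01 for the genotype label at 48 h and 24 h (all genes -0.03 and 0.01), and -0.32 and -0.15 for time in dKO and WT (all genes -0.01 and 0.00). These counts moved with single libraries: at 48 h they were 0 genes without either dKO 48 h library and 22 without WT 48 h replicate 1. At 24 h they were 0 without any 24 h or dKO 48 h library and 8 without either WT 48 h library. For time they ran from 2, without any 1 dKO library, to 23, without either WT 48 h library, in dKO, and from 6, without either WT 24 h library, to 23, without WT 48 h replicate 1, in WT. Leaving out 1 dKO library gave 8 in WT. With only the 4 WT libraries in the fit, 0 pathway genes were called for time in WT, those named below included.

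Among the 12 genes of the interferon gamma route, all tested, Ifng, the cytokine itself, had 1208 and 1130 CPM in dKO and 476 and 433 CPM in WT at 24 h. At 48 h it had 618 and 682 CPM in dKO and 488 and 347 CPM in WT. The dKO libraries lay above WT at both times, and Ifng was called higher at 24 h only (log2 fold change 1.36, SE 0.20, adjusted p 0.0188), with 0.64 at 48 h (adjusted p 0.0664). That call was lost without any 1 of the 24 h or dKO 48 h libraries (adjusted p up to 0.331). Irf1, a transcription factor induced by interferon gamma, had 52.5 and 51.2 CPM in dKO and 47.2 and 50.1 CPM in WT at 48 h, and 63.5 and 69.0 CPM in dKO and 87.9 and 87.5 CPM in WT at 24 h. Irf1 was lower at 48 h than at 24 h in WT (log2 fold change -0.85, adjusted p 0.00273), in all 8 leave-outs, while the value in dKO was -0.35 (adjusted p 0.157). Gbp2, an interferon-induced GTPase, was lower at 48 h in dKO (-0.87, adjusted p 0.0224) and in WT (-0.77, adjusted p 0.0131), in 4 and 7 of 8 leave-outs. Socs1, an inhibitor of JAK kinases, was higher in dKO at 48 h (0.62, adjusted p 0.0373), in only 1 of 8 leave-outs. Ifngr1, a receptor subunit, was higher at 48 h in WT (0.59, adjusted p 0.0326), in only 2 of 8 leave-outs.

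The list of NF-kB, AP-1 and IRF factors held 15 genes, all tested, among them Hif1a and Myc, which belong to none of these families. Of the 15, 4 were called higher and 1, Hif1a, lower in dKO at 48 h. Of all genes, 3.19% were called higher and 8.04% lower there. Batf3, an AP-1 factor, had 57.7 and 58.1 CPM in dKO and 11.9 and 7.83 CPM in WT at 48 h, and 6.33 and 2.60 CPM in dKO and 0.701 and 1.61 CPM in WT at 24 h. Its groups had the same order from high to low as Cd80, and all 4 were separate. Batf3 was higher in dKO at 48 h by 2.60 on the log2 scale (SE 0.32, adjusted p 0.00800), lost only without either dKO 48 h library (adjusted p up to 0.110). Batf3 rose with time by 3.61 in dKO (adjusted p 0.00133) and by 3.04 in WT (adjusted p 0.00268), in all 8 leave-outs. Nfkbia, an inhibitor of NF-kB, Junb and Batf were higher in dKO at 48 h by 0.93 (adjusted p 0.0175), 0.72 (adjusted p 0.0218) and 0.71 (adjusted p 0.0282), and each call was lost without any 1 of the 4 dKO libraries, that of Batf also without either WT 24 h library. Batf also rose with time in dKO (0.76, adjusted p 0.0454), a call that held in 2 of 8 leave-outs. Hif1a, the hypoxia-inducible factor, was lower in dKO at 48 h (-0.52, adjusted p 0.0468, held in 1 of 8 leave-outs). Rel, the NF-kB subunit c-Rel, was lower at 48 h in dKO (-1.72, adjusted p 0.0114), and Rela, another subunit, was lower in dKO (-0.94, adjusted p 0.0313) and WT (-0.71, adjusted p 0.0411). Relb (-0.73), Nfkbia (-0.74) and Jun (-0.78) were also lower at 48 h in WT, with adjusted p-values of 0.0232, 0.0364 and 0.0245 and calls that held in 6, 2 and 2 of 8 leave-outs. The calls of Rel and Rela in dKO held in 4 of 8 and that of Rela in WT in 2. Of the 6 tested genes that handle B7 proteins, such as Cmtm6, which stabilises PD-L1, only Stub1, a ubiquitin ligase, was called. It was higher in dKO at 48 h (0.56, adjusted p 0.0295) and lower at 48 h in WT (-0.70, adjusted p 0.00846), in 2 and 7 of 8 leave-outs.

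The 4 genes were set beside their chromosomal neighbours, the 3 nearest symbols on each side. Of 18 neighbours 12 were tested. Around Cd274 and Pdcd1lg2, none of Jak2, Insl6, Plgrkt, Ric1 and Ermp1 was called in any of the 4 comparisons, and their log2 fold changes of 48 h over 24 h ran from -0.84 to 0.54 in dKO and from -0.22 to 0.69 in WT, all above those of Cd274 and Pdcd1lg2. At an unadjusted p below 0.05, Jak2 and Ric1 were lower at 48 h in dKO. Next to Cd80, Pla1a, a phospholipase gene, had 29 and 34 counts in dKO and 12 and 18 in WT at 48 h, and 8 and 5 counts in dKO and 4 and 1 in WT at 24 h. Pla1a was higher in dKO at 48 h (log2 fold change 1.73, adjusted p 0.0321, held in 1 of 8 leave-outs) and rose with time in dKO (2.27, adjusted p 0.0355, held in 4 of 8). Adprh, also beside Cd80, rose with time in dKO (0.65, adjusted p 0.0466, held in 2 of 8), and Eaf2, near Cd86, rose with time in WT (1.12, adjusted p 0.0203, held in 6 of 8). These tests are edgeR's, with Benjamini-Hochberg adjustment.

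**Figure D5:**
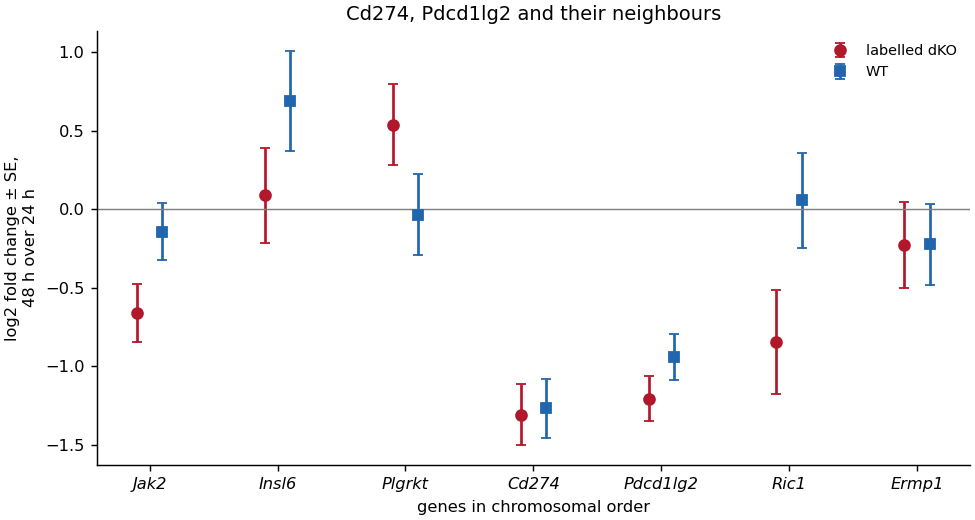
Fitted log2 fold change of 48 h over 24 h with SE, in dKO and WT, for Cd274, Pdcd1lg2 and their tested neighbours in chromosomal order (not to scale). Cd274 and Pdcd1lg2 lie between -1.31 and -0.94, and the neighbours lie higher, the lowest being Ric1 in dKO at -0.84.

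The genes with the most similar pattern were listed by Pearson's r of log2 CPM over the 8 libraries, among 11056 genes (11057 for Cd86) with a mean of at least 20 counts. Since the 8 points are 4 groups of 2, r mostly follows the group means and is a description only. Cd80 was most like Cdca8 (r = 0.996), Gzmb, encoding granzyme B (0.994), Rcsd1 (0.989), Ska3 (0.987) and Lxn (0.987), and 231 genes had r above 0.9. Cd274 was most like Srpk1 (0.995), Vsir (0.988), Ldlrad4 (0.987) and Igfbp4 (0.985), of 237 genes above 0.9. Pdcd1lg2 was most like Dhx34 (0.995), the chemokine genes Ccl3 (0.995) and Ccl4 (0.992), Slc41a1 (0.983) and Map2k3 (0.979), of 136. Cd86, with its few counts, was most like Nr2f1 (0.963), Cyp27b1 (0.958), Tenm3 (0.946) and Bcar1 (0.945), of 21. A predicted gene ranked among the 5 for Cd274 and for Cd86 is not named. When scaled by library size alone, Gzmb, Vsir and Dhx34 ranked 1, 2 and 1, while Cdca8 ranked 12 and Srpk1 20. Between the members r was 0.81 for Cd274 and Pdcd1lg2, -0.93 for Cd80 and Cd274, and -0.66 for Cd80 and Pdcd1lg2.

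Markers of cells that could carry B7 ligands into the culture summed to far less than the CD8 T cell markers, but to more than Cd86 in every library. The myeloid and dendritic sum in WT at 48 h, 16.0 and 14.4 CPM, also lay above Cd80, at 10.9 and 11.6 CPM. In dKO at 48 h that sum, 6.39 and 7.13 CPM, lay below Cd80, at 16.8 and 16.0 CPM. B cell markers, 7 of 8 in the table, summed to 4.16 and 5.06 CPM in dKO and 4.26 and 5.25 CPM in WT at 48 h, and to 4.80 and 4.08 CPM in dKO and 7.01 and 6.15 CPM in WT at 24 h. Most of these were Cd79b, while Blnk and Ebf1 were at 0, Ms4a1 at 0 to 1 and Cd79a at 0 to 3 counts in a library. MHC class II genes, 5 of 5 in the table, summed to 15.3 and 11.8 CPM in dKO and 9.72 and 7.46 CPM in WT at 48 h, and to 9.28 and 9.46 CPM in dKO and 7.15 and 6.89 CPM in WT at 24 h. Cd74 made up most of that sum and was called higher in dKO at 48 h (log2 fold change 0.85, adjusted p 0.0499, held in 1 of 8 leave-outs), while H2-Aa was at 0 to 1 counts. The dKO libraries lay above WT for the class II sum at both times, as they did for Cd80 and Pdcd1lg2, and the part of these markers in those values was not tested.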

How the data were processed

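Values are whole-number counts, as the authors deposited them, 1 column for each of 8 libraries. Trimming used cutadapt 1.18 and alignment Bowtie2 2.2.5 against mm10, per the submitters' processing notes. How reads were assigned to genes (program, annotation, strand, molecular identifiers) was not given in the sources used here, so coverage along a gene is unknown. The unnamed last entry equals the sum of the named genes in every library, and so makes up 50% of each column sum. It was left out, and no counts of named genes were lost by this.

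From the counts, edgeR 4.0.16 in R 4.3.3 fitted all 8 libraries with a mean per group, TMM scaling and filterByExpr (minimum count 10), which kept 12742 genes. Quasi-likelihood F tests were two-sided and adjusted by Benjamini-Hochberg, with calls below 0.05. SE was taken as the size of the log2 value divided by the root of F. The fit was also run on simulated data, drawn with the same spread per gene in every group. That run cannot speak to the larger replicate differences in WT at 48 h. Intervals are exact, at 95%, and a count of 0 allows up to 3 counts, which is 0.138 to 0.600 CPM; both cover counting error only. Xist and Y-linked CPM used total counts, and all other CPM used TMM-scaled totals.

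The members and all gene lists were chosen with earlier results of these data known, and a gene on these lists is not reported here. The text names the members, the targeted genes, other B7 genes and receptors, up to 5 called genes with the smallest p per other pathway list and comparison, neighbours, and the 5 genes most like each member. Alternatives were DESeq2 1.42.0 and its size factors, library size alone, other filters, the 4 libraries compared, a replicate block and each library left out.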

Additional observations from a re-analysis of the deposited data

Results flagged for a closer look

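Each of these pathway genes had fully separate groups in 2 matching comparisons, with opposite directions. The share of all tested genes with this pattern was not computed, so nothing is read from how many are listed. The matching comparisons were dKO over WT at 48 h and at 24 h, or 48 h over 24 h in dKO and in WT. The values are log2 differences of 2 log2 fold changes. None passed edgeR's test of the difference itself, whose adjusted p-values ran from 0.369 to 0.566, and no explanation was tested. For the genotype difference at 48 h minus that at 24 h, Pdcd1 had -0.98 (dKO over WT -0.64 at 48 h and 0.34 at 24 h), Irf1 had 0.49 (0.09 and -0.41), Fos had 0.97 (0.60 and -0.36), Myc had 0.51 (0.30 and -0.22) and Cul3 had -0.75 (-0.64 and 0.12). For 48 h over 24 h in dKO minus that in WT, Socs1 had 0.83 (0.28 in dKO and -0.55 in WT) and Spop had 0.25 (0.09 in dKO and -0.15 in WT).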

How the results depend on the processing

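Of the alternatives for the members' log2 fold changes and the pathway counts, 289 stayed close to the reported value and 74 moved. No member's log2 fold change that was larger than its pooled replicate standard deviation changed sign. Smaller ones did, such as dKO over WT for Cd274 at both times and for Cd86 at 24 h. The causes were not tested. Scaling by library size alone shifted the median log2 fold change of all genes to 0.15 in dKO over WT at 48 h, -0.18 in 48 h over 24 h in dKO and -0.36 in WT. Under it, Pdcd1lg2 was 0.64 in dKO over WT at 48 h, -1.38 in time in dKO and -0.078 in the interaction. In time in WT, Cd80 was 3.60, Cd86 0.23, Cd274 -1.62 and Pdcd1lg2 -1.30, and 23 pathway genes were called. With no filter, 4 pathway genes were called at 24 h and 1 in the interaction. DESeq2 called 5 at 48 h and 2 at 24 h. With only the 4 libraries compared, 1 was called at 48 h, 4 at 24 h, 26 for time in dKO and 0 for time in WT, where the calls of Ctla4, Icos, Vsir, Irf1 and Batf3 were also lost (adjusted p 0.0632 to 0.0708).

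With each library left out in turn, pathway counts ran from 0 to 22 (genotype at 48 h), 0 to 8 (24 h), 2 to 23 (time in dKO), 6 to 23 (time in WT) and 0 to 16 (interaction, the 16 without WT 48 h replicate 1). The lone library left in a group is then assumed to vary like the others. The log2 fold changes of dKO over WT at 48 h ran from -1.19 to -0.65 for Cd86, -0.31 to 0.17 for Cd274 and 0.35 to 0.56 for Pdcd1lg2. At 24 h they ran from 1.37 to 1.90 for Cd80 and -0.39 to 0.33 for Cd86. For time they ran from 2.65 to 3.05 for Cd80 in dKO, and in WT from 3.70 to 4.23 for Cd80, 0.25 to 0.98 for Cd86, -1.55 to -1.07 for Cd274 and -1.04 to -0.82 for Pdcd1lg2. The interaction ran from -1.36 to -0.83 for Cd80, -1.20 to -0.47 for Cd86, -0.21 to 0.26 for Cd274 and -0.37 to -0.15 for Pdcd1lg2.

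Counts over all genes moved too. The main counts were 1430, 55, 463 and 1449 for genotype at 48 h and 24 h and time in dKO and WT, and 0 for the interaction. Library size alone gave 2531 (1615 higher, 916 lower), 739 (143 higher, 596 lower) and 3366 (725 higher, 2641 lower) at 48 h and for time in dKO and WT. No filter gave 2962, 206 and 1649 for the first 3 and 170 for the interaction. The 4 libraries alone gave 444, 181, 4546 and 31. Leaving out libraries gave 15 to 6521, 13 to 371, 32 to 3303, 595 to 4212 and 0 to 3459.

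Whether same-numbered libraries of different groups belong together is not given. Their replicate differences correlated at -0.08 to 0.17 over 6 pairs of groups, and low correlations cannot show that the libraries are unpaired. With the replicate number as a block, 7, 1, 7 and 14 pathway genes were called, and 0 for the interaction. Low counts limit Cd86 in all groups and Cd80 at 24 h.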
